A study of Homo sapiens with 21 samples.

Results

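ATF4, CHOP (gene *DDIT3*) and 6 transcription regulators that work with them or under them, *ATF3*, *ATF5*, *CEBPB*, *CEBPG*, *JDP2* and *NUPR1*, were followed at the RNA level in cells under endoplasmic reticulum (ER) stress. The 8 genes were taken from the deposited table by their Ensembl identifiers, out of 60671 genes in all, and each of the 8 was among the 14012 genes expressed highly enough to be tested. RNA had been sequenced from 21 cultures in 7 groups of 3. OCI-AML3 cells, an established acute myeloid leukaemia line, were untreated at 0 h, or received the solvent DMSO or tunicamycin at 1 µg/mL for 4 h or for 24 h. HEK293T cells, an embryonic kidney line that carries the SV40 large T antigen, received DMSO or tunicamycin at the same dose for 24 h. Tunicamycin blocks N-linked glycosylation, so that unfolded glycoproteins accumulate in the ER. No source used here says whether the 3 replicates of a group were grown on separate days, so that the p-values measure the spread between these cultures only.

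ER stress activates the kinase PERK, which phosphorylates the translation factor eIF2α. Most translation then slows, while the *ATF4* mRNA, whose upstream open reading frames normally hold ribosomes away from the coding frame, is translated better. ATF4 is a basic leucine zipper (bZIP) protein that binds DNA as a dimer with other bZIP proteins, mainly of the C/EBP family, and switches on genes of amino acid supply and stress defence, the gene of CHOP among them. RNA levels, as measured here, do not show this translational step.

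Library totals ran from 13838480 to 19961819 counts (median 16657733). Levels are given as CPM, the count of a gene scaled to a common library total, with the totals adjusted by TMM normalization (trimmed mean of M-values), whose factors lay between 0.891 and 1.15. A level of this kind is a share of the RNA in a library, so that a change in the RNA of each cell cannot be told apart from a change in the share of cells that express a gene. Of 10 myeloid markers 6 were at 1 CPM or more in every OCI-AML3 library, among them *PTPRC* at 230.0 to 467 CPM and *SPI1* at 186 to 307 CPM, and *PTPRC* was at 0 in all HEK293T libraries. *MPO* reached 0.98 to 1.66 CPM in OCI-AML3 cells, while *CD34* reached at most 0.351 CPM and *KIT* at most 0.0717 CPM there. *KIT* was at 12.1 to 16.7 CPM in HEK293T cells. Of 10 genes listed for HEK293 cells 8 were at 1 CPM or more in every HEK293T library, with *NEFM* at 105 to 142 CPM against at most 0.141 CPM in OCI-AML3 cells. The summed level of that list was nonetheless higher in OCI-AML3 cells (965 to 2656 CPM) than in HEK293T cells (757 to 794 CPM), through *VIM* at 959 to 2648 against 430.1 to 491 CPM, and *LHX1* was at 1.23 to 3.12 against 0.909 to 2.10 CPM.

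All positions are on GRCh38. *ATF4* lies at chr22:39519695-39522683, *DDIT3* at chr12:57516588-57521737 on the minus strand, *ATF3* at chr1:212565334-212620777 and *ATF5* at chr19:49928702-49933935. *CEBPB*, a gene of 1 exon, lies at chr20:50190830-50192668, *CEBPG* at chr19:33373685-33382686, *JDP2* at chr14:75427716-75474111 and *NUPR1* at chr16:28532708-28539008 on the minus strand. The exons of *DDIT3* share 355 bases, 27.2% of their length, with *MARS1* on the opposite strand, and those of *ATF5* share 565 bases, 19.5%, with *NUP62*. Those of *CEBPB* share 231 bases, 12.6%, with *CEBPB-AS1* on the opposite strand. Whether reads were counted by strand is not given in the sources used here, so that reads from these stretches cannot be assigned to 1 of the pair with certainty. On the same strand, exons of *NUPR1* share 909 bases, 16.5%, with a long noncoding RNA gene. Those of *DDIT3* share 105 bases, 8.03%, with a protein-coding gene on its own strand. The part of these overlaps in the member values was not tested. *MARS1* had mean levels of 194 CPM with DMSO and 387 CPM with tunicamycin at 4 h in OCI-AML3 cells, and *NUP62* had 123 and 116 CPM in HEK293T cells, and the part of these genes in the *DDIT3* and *ATF5* values was not tested.

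The core of the C/EBP-ATF response element, the composite site that an ATF4 and C/EBP dimer can bind, was sought as TGATGNAA on both strands in the RefSeq promoter windows (GRCh38.p14, 250 bases before to 50 after a start site) of the 7 members that have an entry. It was found in 3 of them, *ATF3*, *CEBPG* and *JDP2*, against 4.47% of the 27167 genes with an entry. Each of these members has 2 or 3 start sites, whereas the 27167 genes have 34943 in all. More windows were therefore searched per member than per gene, and the promoter shares of all genes are not adjusted for this. In windows of 1000 bases, a length chosen after the data had been seen, *DDIT3* was added as the fourth, against 14.8% of all genes. The stretches around these 4 matches are shown because they hold the letters of the composite site. Whether a match goes with the response was not tested. They are written 5′ to 3′ on the strand of the gene, with the match in capitals, and lie at chr1:212565180-212565259 (upstream of the annotated *ATF3*, 191 bases before a RefSeq start), chr19:33374035-33374114 (in an intron of the longest *CEBPG* model, 42 bases before a start), chr12:57520777-57520856 (in an intron of the longest *DDIT3* model, 303 bases before a start, with the match on the other strand) and chr14:75427995-75428024 (in an intron of the longest *JDP2* model, 16 bases before a start).
ATF3: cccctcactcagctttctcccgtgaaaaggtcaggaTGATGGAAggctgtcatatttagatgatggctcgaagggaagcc
CEBPG: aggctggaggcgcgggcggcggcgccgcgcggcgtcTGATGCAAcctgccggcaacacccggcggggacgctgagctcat
DDIT3: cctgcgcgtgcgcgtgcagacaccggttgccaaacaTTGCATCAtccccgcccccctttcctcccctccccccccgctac
JDP2: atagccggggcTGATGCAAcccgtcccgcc
The cyclic AMP response element TGACGTCA was in 0 of the 7 windows of 300 bases, against 2.23% of all genes, and in 1 of the 7 of 1000 bases (*ATF3*), against 2.96%. The AP-1 site TGANTCA was in 2 of 7 (*ATF5* and *DDIT3*), against 9.39%, and in 4 of 7 at 1000 bases (with *ATF4* and *CEBPB*), against 25.7%. The ER stress response element was in 0 of 7 at either length, against 0.0920% of all genes at 300 bases. These are matches of letters in a window and show no binding.

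Set on a scale that allows genes to be compared, CPM per kb of the MANE Select transcript, *ATF4* was the most abundant of the 8 in every group. Its mean was 288 to 305 CPM per kb in the 3 unstressed OCI-AML3 groups, where *CEBPB* followed at 32.0 to 45.8 and *CEBPG* at 19.5 to 24.5 CPM per kb. In HEK293T cells with DMSO *ATF4* stood at 401 CPM per kb, *CEBPG* was the second at 20.3, and *CEBPB* held 9.28 CPM per kb. With tunicamycin *DDIT3* became the second most abundant in all 3 comparisons, at 503 CPM per kb at 4 h and 242 at 24 h in OCI-AML3 cells and at 93.6 CPM per kb in HEK293T cells. When the length of all merged exons was used instead, a choice made after the data had been seen, *DDIT3* (347 CPM per kb) passed *ATF4* (315) in OCI-AML3 cells at 4 h. *NUPR1* was the least abundant member in each group on the MANE Select length. On the merged length *JDP2* (1.59 CPM per kb) lay just under *NUPR1* (1.61) in HEK293T cells with tunicamycin.

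**Figure D1:**
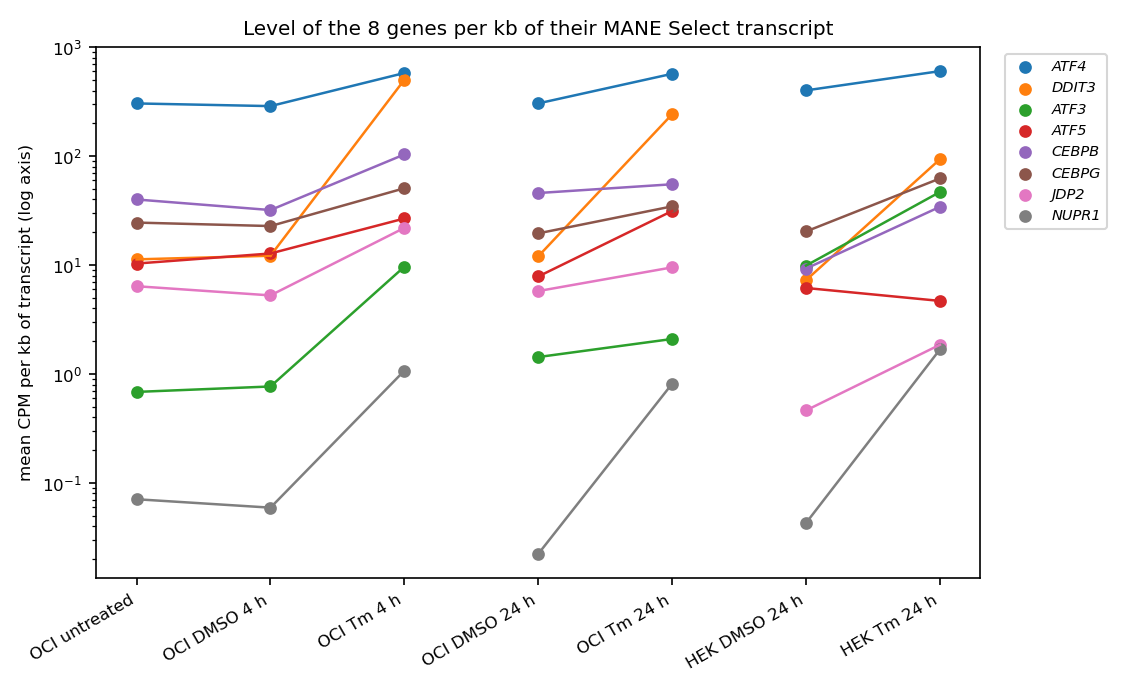
Mean level of each of the 8 genes (y axis, CPM per kb of the MANE Select transcript, log axis) in the 7 groups (x axis; OCI, OCI-AML3; HEK, HEK293T; Tm, tunicamycin), each point a mean of 3 libraries, with lines joining groups of 1 line and time and the untreated to the 4 h DMSO group. *ATF4* is on top in every group, and *DDIT3* climbs from 12.2 to 503 CPM per kb at 4 h.

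With tunicamycin all 8 genes were called higher in OCI-AML3 cells at 4 h, 3 of them at 24 h and 6 of them in HEK293T cells at 24 h. The 8 genes were chosen with earlier results of these data known, so that these counts describe them and test nothing. *DDIT3* and *NUPR1* had the largest fold changes of the 8 in each of the 3 comparisons. *ATF5* was called at both times in OCI-AML3 cells, while its log2 fold change was negative in HEK293T cells. Calls rest on edgeR's quasi-likelihood test and need an adjusted p (Benjamini-Hochberg, over all genes tested) no higher than 0.05 together with a log2 fold change beyond 1 in either direction. By that rule 3.45% of all genes tested were called higher in OCI-AML3 cells at 4 h, 4.05% at 24 h and 1.58% in HEK293T cells. In HEK293T cells 0.55% of genes were called lower, none of the 8 among them. The count of 3 at 24 h rests on the fold threshold, since all 8 had a positive log2 fold change with an adjusted p of at most 0.05 there, as did 3286 of the 14012 genes tested. For *ATF3* at 24 h that adjusted p ran from 0.0038 to 0.077 over the 29 alternatives, so that it did not stay at or under 0.05 in each. At 4 h the call of *ATF4* was lost in 4 of 29 alternatives, among them without DMSO replicate 2 (log2 fold change 0.98) or 3 (0.93), and that of *ATF5* without tunicamycin replicate 1 (0.99). *NUPR1* reached 1 CPM in the 9 tunicamycin libraries and in 0 of the other 12, so that it entered the test through its treated groups. Its calls are therefore no support for the counts, and its large fold changes were in part set by the filter. With *NUPR1* left aside, all treated libraries lay above all DMSO libraries for 7 of the other 7 genes at 4 h, where 22.9% of all genes tested did so. They did for 6 of the 7 at 24 h in OCI-AML3 cells (25% of all genes) and for 6 in HEK293T cells (23.4%), where *ATF5* lay below instead, as did 25.7% of all genes.

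**Figure D2:**
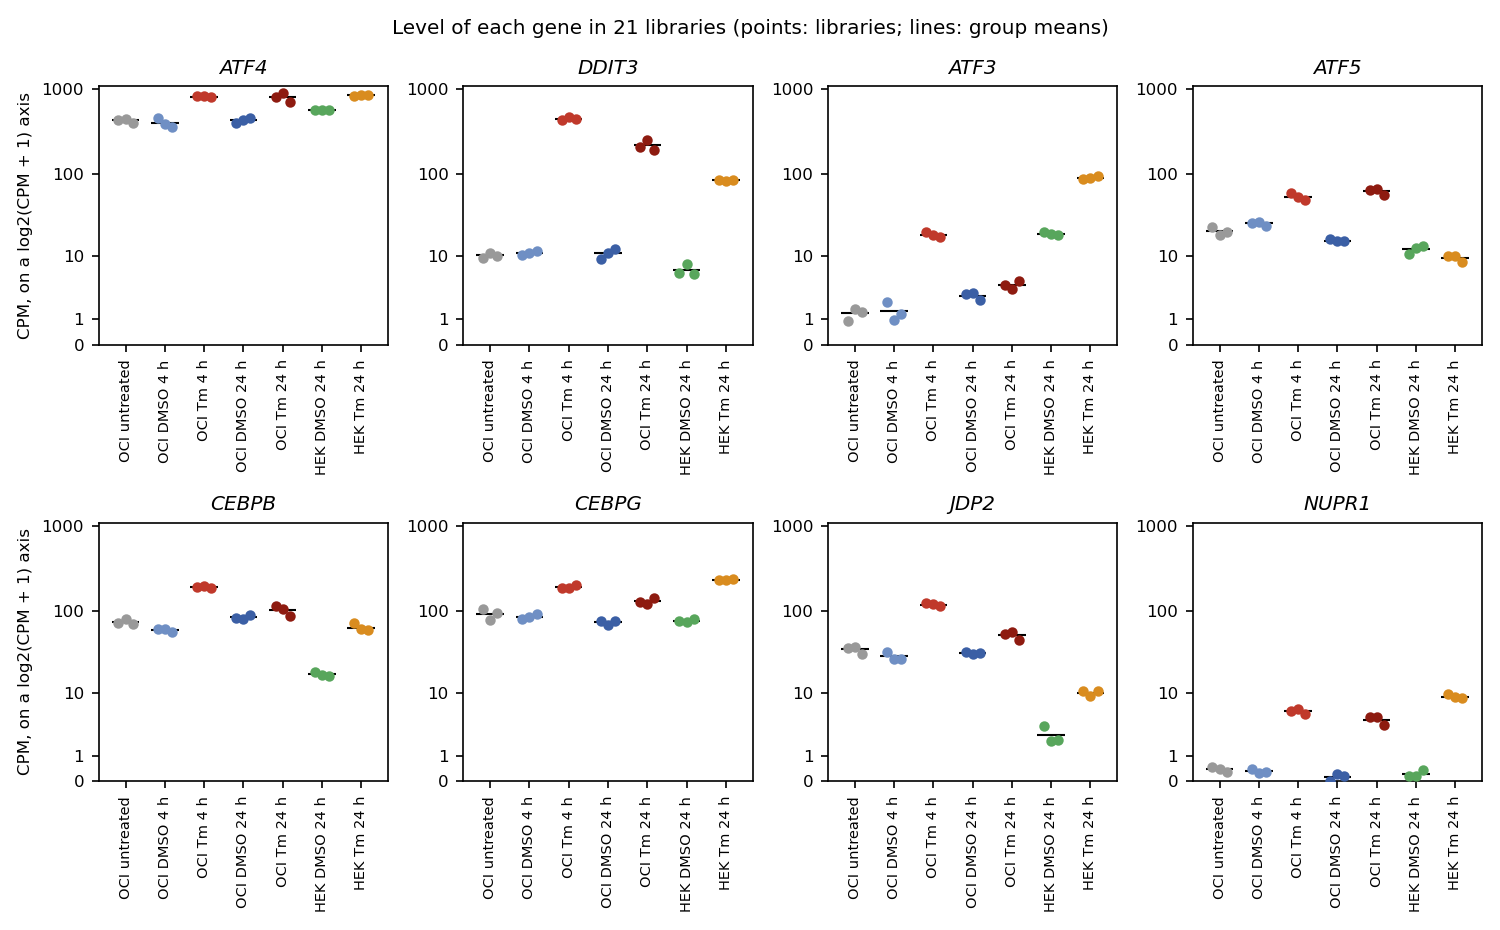
Level of each gene in CPM (y axis, drawn as log2(CPM + 1)) in the 21 libraries, with a panel for each gene, a point for each library and a line at each group mean. *DDIT3* is higher in all 3 treated groups, *ATF3* in OCI-AML3 cells has means of 2.78 CPM with DMSO and 4.07 CPM with tunicamycin at 24 h, and *ATF5* in HEK293T cells has 12.4 and 9.41 CPM.

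*ATF4* itself had levels of 467, 394 and 365 CPM with DMSO and 828, 832 and 807 CPM with tunicamycin at 4 h in OCI-AML3 cells. The groups lay well apart, and the log2 fold change was 1.01 ± 0.08 (SE, adjusted p = 2.4e-09), a 2.01-fold rise that only just passed the fold threshold. At 24 h the levels were 399.7, 436 and 462 CPM with DMSO and 819.6, 900.1 and 707 CPM with tunicamycin, again without overlap. That log2 fold change of 0.90 ± 0.08 (adjusted p = 1.3e-08) stayed under the fold threshold, although the treated levels overlapped those at 4 h. HEK293T cells started higher, at 568, 571 and 569.8 CPM, and reached 847, 860.3 and 859 CPM, the highest mean of the 7 groups. There the log2 fold change was 0.59 ± 0.08 (adjusted p = 1.5e-05), under the threshold as well.

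*DDIT3* encodes CHOP, a C/EBP family member that dimerizes with other C/EBP proteins and with ATF4 and promotes cell death under prolonged ER stress. It rose from 10.4, 11.01 and 11.6 CPM with DMSO to 436, 477 and 448 CPM with tunicamycin at 4 h in OCI-AML3 cells. This 41.2-fold difference (log2 5.36 ± 0.11, adjusted p = 9.4e-20) was the seventh largest rise among all genes tested. At 24 h the levels were 9.25, 10.9 and 12.4 CPM with DMSO and 209, 253 and 194 CPM with tunicamycin. The treated level at 24 h lay under each library of the 4 h group, and the rise was 20.2-fold (log2 4.33 ± 0.11, adjusted p = 3.8e-18). In HEK293T cells *DDIT3* went from 5.90, 7.98 and 5.81 CPM to 84.9, 84.1 and 84.5 CPM, 12.9-fold higher (log2 3.69 ± 0.12, adjusted p = 1.2e-16). The 7 groups thus formed 5 levels that did not overlap: HEK293T with DMSO, the 3 unstressed OCI-AML3 groups, which overlapped each other, and then the treated groups in the order HEK293T, OCI-AML3 at 24 h and OCI-AML3 at 4 h, each apart from the next.

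*ATF3*, an early stress gene of the ATF/CREB family that represses transcription as a homodimer, was low in unstressed OCI-AML3 cells. It had 2.19, 0.960 and 1.32 CPM with DMSO and 20.2, 18.7 and 17.3 CPM with tunicamycin at 4 h, a 12.6-fold rise (log2 3.66 ± 0.20, adjusted p = 6.7e-14). By 24 h most of the difference was gone, with 2.94, 3.00 and 2.39 CPM against 4.08, 3.50 and 4.63 CPM. These libraries still did not overlap, but the log2 fold change of 0.56 ± 0.19 (adjusted p = 0.018) was under the fold threshold. HEK293T cells held 20.1, 18.95 and 18.5 CPM with DMSO, as much as stressed OCI-AML3 cells at 4 h, whose libraries they overlapped. Without TMM the mean of HEK293T cells with DMSO was the higher, at 21.9 against 18.1 CPM. Tunicamycin brought HEK293T cells to 87.4, 91.0 and 94.2 CPM, a log2 fold change of 2.24 ± 0.11 (adjusted p = 3.3e-13).

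*ATF5*, a relative of ATF4 whose mRNA is under a similar translational control and whose protein also acts in the mitochondrial stress response, had 26.3, 26.5 and 24.1 CPM with DMSO and 59.4, 53.0 and 48.7 CPM with tunicamycin at 4 h in OCI-AML3 cells (log2 fold change 1.07 ± 0.10, adjusted p = 1.3e-08). At 24 h it had 16.4, 15.5 and 15.5 CPM against 65.4, 66.3 and 57.1 CPM, 3.99-fold higher (log2 1.996 ± 0.10, adjusted p = 7.4e-13). Each DMSO library at 24 h lay under each at 4 h, while the treated libraries of the 2 times overlapped. In HEK293T cells the order was turned around, with 10.7, 12.8 and 13.6 CPM with DMSO and 10.0, 9.97 and 8.26 CPM with tunicamycin. Each treated library lay under each DMSO library, and the log2 fold change was -0.39 ± 0.12 (adjusted p = 0.016), short of the fold threshold. Over the 29 alternatives that adjusted p ran from 0.0061 to 0.09, so that it did not stay at or under 0.05 in each.

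*CEBPB*, a regulator of myeloid and fat cell differentiation and of inflammatory genes, had 60.0, 61.3 and 55.2 CPM with DMSO and 191, 197 and 184 CPM with tunicamycin at 4 h in OCI-AML3 cells (log2 fold change 1.70 ± 0.09, adjusted p = 8.1e-13). At 24 h the groups overlapped, the only member and comparison of the 3 in which they did, with 82.8, 80.7 and 89.3 CPM against 113, 104 and 87.4 CPM. The log2 fold change was 0.27 ± 0.09 (adjusted p = 0.016). In HEK293T cells the basal level was far lower, at 18.5, 16.5 and 16.2 CPM, and 70.5, 60.1 and 58.4 CPM were reached with tunicamycin, a log2 fold change of 1.89 ± 0.10 (adjusted p = 7.4e-13). The treated HEK293T level overlapped that of OCI-AML3 cells with DMSO for 4 h, while without TMM the 2 means were 70.5 and 57.5 CPM.

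*CEBPG*, a small C/EBP protein without a classical activation domain and a frequent partner of ATF4, had 79.3, 84.1 and 91.9 CPM with DMSO and 184, 183 and 199.8 CPM with tunicamycin at 4 h (log2 fold change 1.15 ± 0.09, adjusted p = 4.4e-10). At 24 h it had 74.9, 67.4 and 76.4 CPM against 126, 120.1 and 141 CPM, apart but under the fold threshold at 0.83 ± 0.09 (adjusted p = 1e-07). It had its highest level in treated HEK293T cells, at 228, 229 and 240.3 CPM against 74.6, 73.2 and 79.8 CPM with DMSO, a 3.07-fold rise (log2 1.62 ± 0.09, adjusted p = 1.9e-12). The 4 groups without tunicamycin overlapped their neighbours in the order of levels.

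*JDP2*, a bZIP repressor that pairs with JUN and ATF proteins, had 31.9, 26.7 and 26.4 CPM with DMSO and 122, 119.9 and 112 CPM with tunicamycin at 4 h, a 4.17-fold rise (log2 2.06 ± 0.11, adjusted p = 1.2e-12). At 24 h the levels were 32.1, 30.2 and 30.8 CPM against 53.0, 55.7 and 45.0 CPM, a log2 fold change of 0.72 ± 0.11 (adjusted p = 1.7e-05) that did not pass the fold threshold. In HEK293T cells it was rare, at 3.49, 1.93 and 2.06 CPM with DMSO, and rose 4.002-fold to 10.3, 9.04 and 10.5 CPM (log2 2.001 ± 0.17, adjusted p = 3.4e-09). Even with tunicamycin each HEK293T library lay under each OCI-AML3 library.

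*NUPR1*, a small chromatin protein outside the bZIP family that is induced by many stresses, was barely counted without tunicamycin. In OCI-AML3 cells at 4 h it had 0.399, 0.256 and 0.286 CPM with DMSO and 5.76, 6.04 and 5.23 CPM with tunicamycin (log2 fold change 4.16 ± 0.37, adjusted p = 1.3e-10). At 24 h the 3 DMSO libraries held 0, 3 and 2 counts, where a count of 0 allows up to 0.215 CPM in that library, and the treated libraries held 67, 62 and 66 counts. The ratio of the summed counts, 195 against 5 and corrected for library size, was 35.5, with a 95% interval of 14.97 to 111 (Clopper-Pearson) that covers counting error only. In HEK293T cells 0.154, 0.161 and 0.366 CPM stood against 9.54, 8.66 and 8.46 CPM (log2 fold change 5.21 ± 0.38, adjusted p = 1.8e-12). Treated and untreated libraries lay apart throughout, and the 4 groups without tunicamycin overlapped their neighbours.

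**Figure D3:**
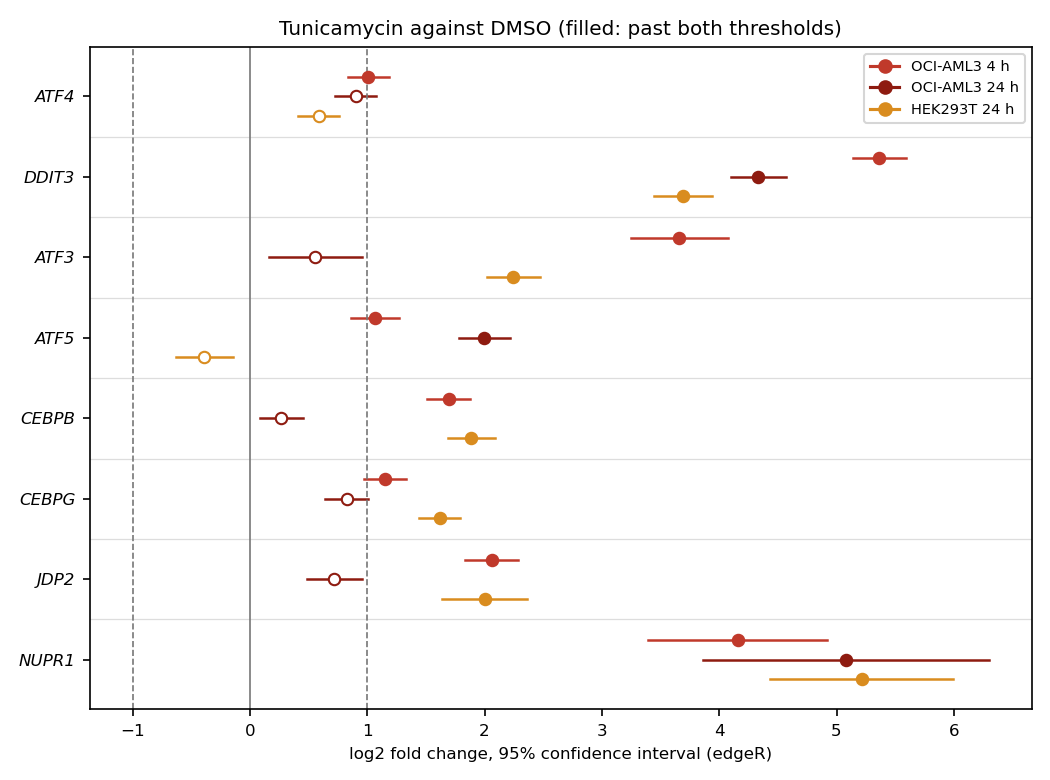
Log2 fold change with its 95% confidence interval (x axis, edgeR) of each gene (y axis) for tunicamycin against DMSO, with a colour for each of the 3 comparisons. Filled points passed both thresholds, and dashed lines mark a log2 fold change of -1 and 1. At 24 h in OCI-AML3 cells only *DDIT3* (4.33), *ATF5* (1.996) and *NUPR1* (5.08) are filled.

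Whether the early and late responses of OCI-AML3 cells differed was asked with an interaction term, the effect at 24 h minus the effect at 4 h. The effect was smaller at 24 h for 5 genes and larger for 1, *ATF5*, at an adjusted p of at most 0.05, a rule that 35.3% of all genes tested met. *ATF3* had the largest difference, -3.10 ± 0.28 on the log2 scale (adjusted p = 2.1e-08), followed by *CEBPB* at -1.43 ± 0.13 (adjusted p = 2.2e-08), *JDP2* at -1.34 ± 0.16 (adjusted p = 1.4e-06) and *DDIT3* at -1.03 ± 0.16 (adjusted p = 3.6e-05). The effect on *ATF5* was larger by 0.93 ± 0.14 (adjusted p = 4.1e-05). *CEBPG* met the rule at -0.33 ± 0.12 (adjusted p = 0.044), but in 22 of 29 alternative analyses it did not (adjusted p from 0.023 to 0.22). For *ATF4* the difference was -0.11 (95% interval -0.35 to 0.14, adjusted p = 0.51), and for *NUPR1* it was 0.92 (-0.52 to 2.36, adjusted p = 0.30), an interval wide enough to hold a change of either sign.

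Whether the lines responded differently at 24 h was asked in the same way, the effect in HEK293T cells minus that in OCI-AML3 cells. The 2 interactions share the 24 h OCI-AML3 libraries and are therefore not independent of each other. The effect was larger in HEK293T cells for *ATF3* (1.69 ± 0.22, adjusted p = 9.8e-06), *CEBPB* (1.62 ± 0.13, adjusted p = 9.2e-09), *JDP2* (1.28 ± 0.21, adjusted p = 7.4e-05) and *CEBPG* (0.79 ± 0.12, adjusted p = 6.3e-05). It was smaller for *ATF5* (-2.38 ± 0.16, adjusted p = 4.6e-10) and *DDIT3* (-0.64 ± 0.16, adjusted p = 0.0059). Of all genes tested 26.8% met this rule, and 6 of the 8 members did. *ATF4* missed it at -0.32 ± 0.12 (adjusted p = 0.053), but met it in 16 of 29 alternatives (adjusted p from 0.0025 to 0.096), and *NUPR1* had 0.13 (95% interval -1.32 to 1.58, adjusted p = 0.96). The lines were grown in different media, RPMI and DMEM, so that line and medium cannot be told apart.

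**Figure D4:**
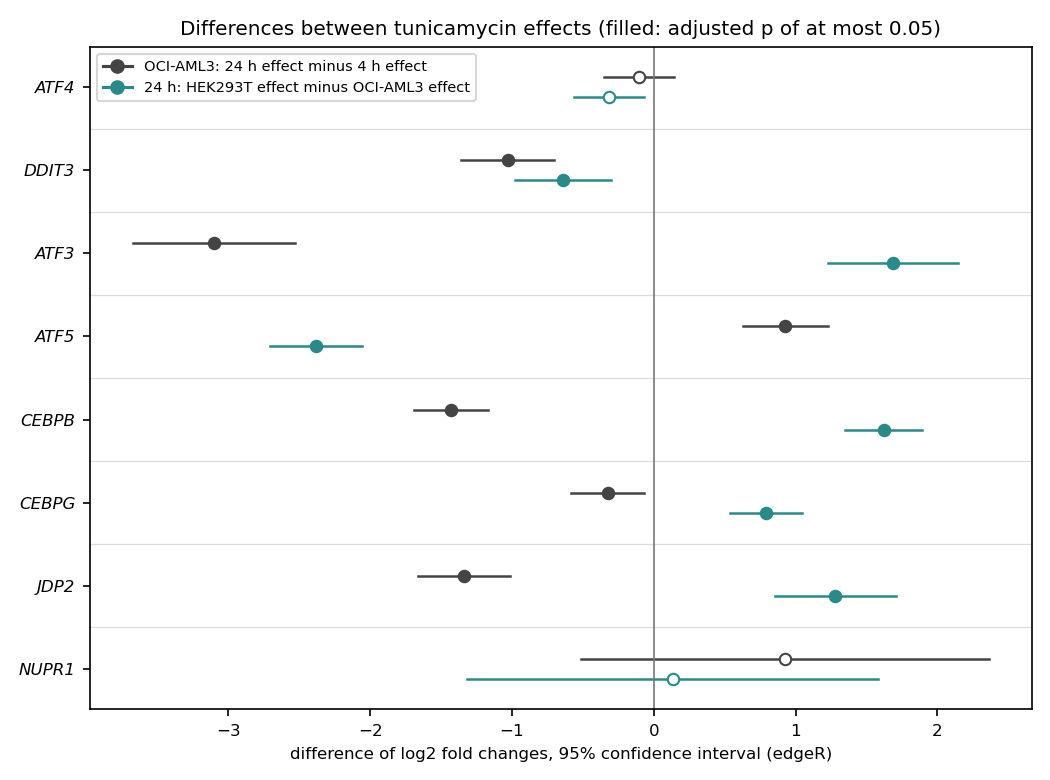
Difference between tunicamycin effects with its 95% confidence interval (x axis, log2 scale, edgeR) for each gene (y axis), between late and early OCI-AML3 cells and between HEK293T and OCI-AML3 cells at 24 h. Filled points had an adjusted p of at most 0.05. *ATF3*, *CEBPB*, *CEBPG* and *JDP2* lie under 0 for time and above 0 for line, and *ATF5* the other way round.

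The control groups show what the members did without tunicamycin. DMSO for 4 h against no treatment called 0 of the 8 genes and 0% of all genes in either direction with edgeR, limma voom and DESeq2. At an unadjusted p under 0.05, 3 of the 8 were counted (*ATF5*, *CEBPB* and *JDP2*) and 8.28% of all genes. Between DMSO at 4 h and at 24 h edgeR called none of the 8, where it called 3.48% of all genes higher and 0.664% lower. *NUPR1* was called lower with limma voom (log2 difference -1.53), and *ATF3* was called higher without DMSO 4 h replicate 1 (1.28) or DMSO 24 h replicate 3 (1.004). The adjusted p was at most 0.05 for *ATF3* (log2 difference 0.91 ± 0.23, adjusted p = 0.0028), *CEBPB* (0.52 ± 0.09, adjusted p = 9e-05), *ATF5* (-0.70 ± 0.11, adjusted p = 2.3e-05) and *CEBPG* (-0.22 ± 0.09, adjusted p = 0.047). These are 4 of the 8 members, and 42.6% of all genes tested met that rule. The same DMSO libraries enter the time interactions of these genes.

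Between the lines, basal levels with DMSO for 24 h differed past both thresholds for 3 members. *ATF3* was higher in HEK293T cells by 2.78 ± 0.17 on the log2 scale (adjusted p = 7.5e-14), at 18.5 to 20.1 against 2.39 to 3.00 CPM, and 20.3% of all genes were called higher there. *JDP2* (-3.64 ± 0.17, adjusted p = 3.3e-16) and *CEBPB* (-2.30 ± 0.10, adjusted p = 5.1e-16) were lower, as were 24.9% of all genes. *CEBPG* had a difference of 0.06 (95% interval -0.13 to 0.24, adjusted p = 0.54). The basal order of the 8 genes therefore differed between the lines while *ATF4* led both.

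Other bZIP genes, the possible dimer partners, were counted in the same way, with no test against the members. This list too was chosen with earlier results of these data known. Of 38 tested bZIP genes of 5 families that are not members, 5 (13.2%, against 3.45% of all genes) were called higher at 4 h in OCI-AML3 cells, among them *JUN* (log2 fold change 2.65 ± 0.17) and *FOSB* (2.22 ± 0.29). At 24 h 1 was called higher, *XBP1* (1.84 ± 0.08), the ER stress factor whose mRNA is spliced by IRE1, and 1 lower, *FOSL1* (-1.15 ± 0.16), that is 2.63% of the 38 in each direction against 4.05% of all genes called higher and 2.26% called lower. In HEK293T cells 4 (10.5%, against 1.58% of all genes) were called higher, led by *XBP1* (1.68 ± 0.08), *CREB3L2* (1.22 ± 0.08) and *JUND* (1.22 ± 0.11). The median log2 fold change of the 38 was 0.27, 0.08 and 0.23 in these comparisons, against -0.02, -0.01 and -0.01 over all genes tested. In the C/EBP family *CEBPA* and *CEBPD*, named after their values were seen, had log2 fold changes of -0.50 and -0.32 at 4 h and were not called in any of the 3 comparisons.

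**Figure D5:**
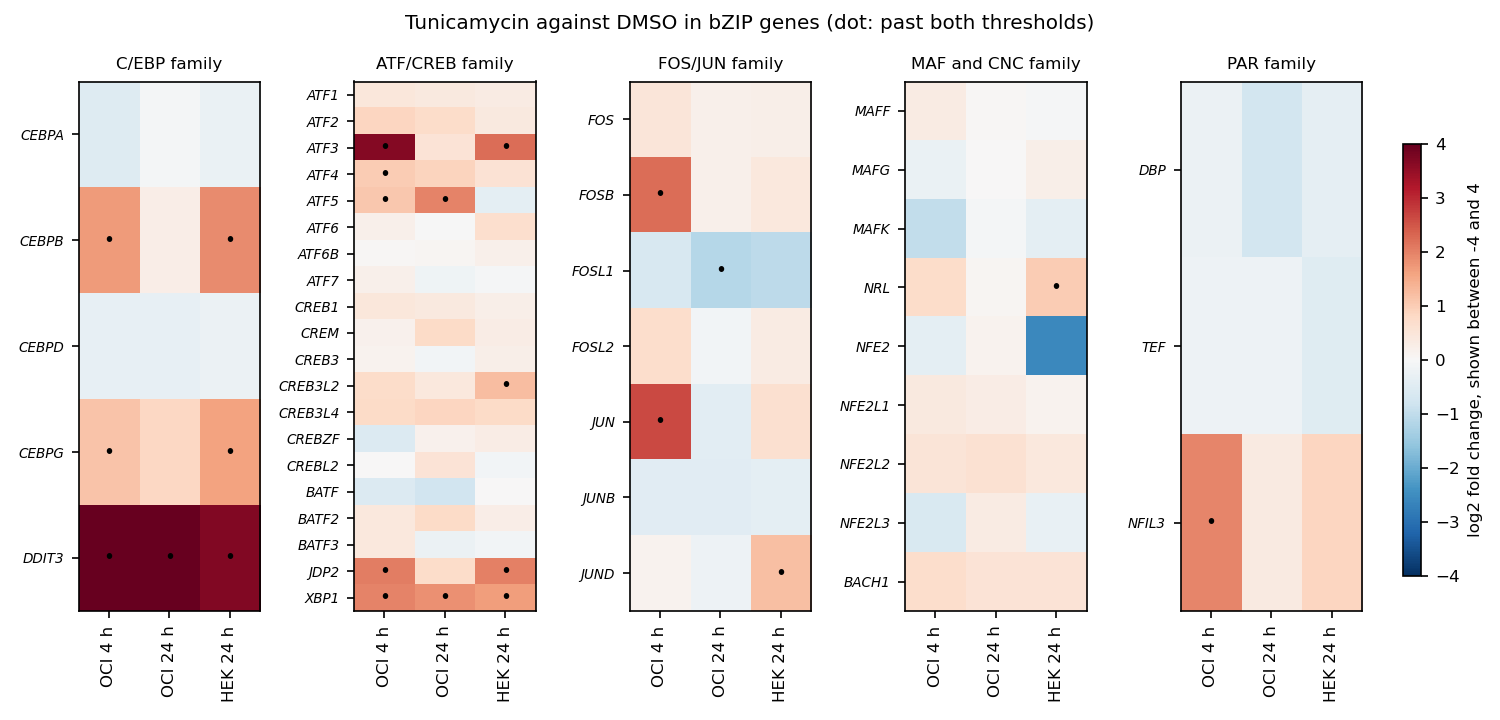
Log2 fold change of tunicamycin against DMSO (colour, shown between -4 and 4) for tested bZIP genes of 5 families (rows) in the 3 comparisons (columns), with a dot where both thresholds were passed. *DDIT3* and *XBP1* carry a dot in all 3 columns, and *CEBPA* and *CEBPD* in none.

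Genes downstream of ATF4 and CHOP were taken as a list of 40 known targets, 39 of them tested. The list was chosen with earlier results of these data known, so that its shares are no independent support. Past both thresholds 28 (71.8%, against 3.45% of all genes) were called higher at 4 h and 17 (43.6%, against 4.05%) at 24 h in OCI-AML3 cells, and 23 (58.97%, against 1.58%) in HEK293T cells. None was called lower by that rule, against 1.47%, 2.26% and 0.55% of all genes. At an adjusted p of at most 0.05 alone, 37, 36 and 35 of the 39 were higher and 1 was lower in each comparison. The last were *BCL2L11* (-0.26) at 4 h, *CDKN1A* (-0.62) at 24 h and *SQSTM1* (-0.34) in HEK293T cells, named after their values were seen. The median log2 fold change of the 39 was 1.65, 0.89 and 1.35, against -0.02, -0.01 and -0.01 over all genes tested. Farthest from 0 were *STC2* (6.63 ± 0.23), *CHAC1* (5.90 ± 0.18), a glutathione-degrading enzyme, and *DDIT4* (5.44 ± 0.13), an inhibitor of mTORC1, at 4 h. At 24 h these were *SLC7A11* (3.78 ± 0.24), the cystine transporter, *CHAC1* (3.65 ± 0.17) and *GDF15* (3.25 ± 0.29), and in HEK293T cells *ADM2* (3.84 ± 0.28), *CHAC1* (3.76 ± 0.17) and *HERPUD1* (3.33 ± 0.07). At an adjusted p of at most 0.05 the time interaction was negative for 29 of the 39 and positive for 4, against 20.3% and 15.1% of all genes tested, and the other 6 missed that threshold. It was most negative for *DDIT4* (-4.77 ± 0.17), *STC2* (-4.08 ± 0.27) and *TRIB3* (-2.65 ± 0.11). The DMSO levels of these 3 genes were themselves higher at 24 h than at 4 h, by 4.37 ± 0.13 for *DDIT4*, 2.98 ± 0.25 for *STC2* and 0.71 ± 0.08 for *TRIB3* on the log2 scale. The mean level of *DDIT4* went from 13.7 to 283 CPM with DMSO and from 595 to 451 CPM with tunicamycin.

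Of 10 genes for the eIF2α kinases, eIF2α and its phosphatase, *EIF2AK3*, which encodes PERK, was called higher in all 3 comparisons (1.64 ± 0.09, 1.47 ± 0.09 and 1.31 ± 0.08). *PPP1R15A*, the inducible phosphatase subunit that reverses eIF2α phosphorylation, was called at 4 h (2.39 ± 0.08) and in HEK293T cells (1.21 ± 0.09). The calls were thus 2, 1 and 2 of 10 (20%, 10% and 20%), all higher, against 3.45%, 4.05% and 1.58% of all genes. Of 13 tested regulators of the ATF4 and CHOP proteins, *TRIB3*, a pseudokinase that binds ATF4 and CHOP, was called in all 3 comparisons (4.64 ± 0.08, 1.99 ± 0.08 and 2.53 ± 0.08). *TRIB1* (1.07 ± 0.14) was the one other called, at 4 h. These are 15.4%, 7.69% and 7.69% of the 13, against the same shares of all genes. *PPP1R15A* and *TRIB3* are also among the targets above, so that their calls are counted in both places. Both lists of this paragraph were chosen with earlier results of these data known.

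Which genes followed each member most closely was described by Pearson's r of log2 CPM over the 21 libraries, after the mean of each line was subtracted. All libraries share their treatment groups, so that r mainly reflects the treatment, and no p is given. *ATF4* was closest to *XBP1* (0.979), *MANF* (0.974) and *AARS1* (0.973), and *DDIT3* to *CHAC1* (0.990), *DNAJB9* (0.990) and *EIF2AK3* (0.989). *ATF3* was closest to *STX5* (0.984), *PPP1R15A* (0.981) and *CCDC163* (0.968), and *ATF5* to *GPR18* (0.944), *IGFBP3* (0.925) and *STEAP3* (0.923). *CEBPB* was closest to *PCK2* (0.979), *LONP1* (0.968) and *JDP2* (0.966), and *JDP2* in turn to *PCK2* (0.973), *SLC3A2* (0.972) and *G0S2* (0.972). *CEBPG* was closest to *LRRC8D* (0.988), *IFRD1* (0.978) and *HSPA13* (0.975), and *NUPR1* to *MAGT1* (0.978), *CDK2AP2* (0.978) and *ALDH1L2* (0.975). By Spearman's rho, none of the genes named for *ATF4*, *DDIT3*, *JDP2* and *NUPR1* remained among the 3 nearest. Among the members themselves r was highest for *ATF4* and *DDIT3* (0.971) and lowest for *ATF5* and *CEBPB* (0.330).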

How the data were processed

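The authors made paired-end libraries from poly(A) RNA, used seqtk for trimming, STAR for alignment (GRCh38) and RSEM for quantification (Ensembl 101). The deposited values are RSEM expected counts, neither normalized nor filtered, of which 3.54 to 4.22% in each library were fractional. RSEM divides reads that align to several genes between them. Here values were rounded, and a gene was kept if 8 or more of the 21 libraries reached 1 CPM, the filter of the study's methods, which used limma voom. No pair of libraries was identical.

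After TMM scaling, edgeR 4.0.16 (R 4.3.3) fitted 1 model with 7 group means and no replicate block. Calls of the comparisons need both thresholds, and interactions the adjusted p alone. Standard errors come from the fitted means and the moderated dispersion. The 29 alternatives were voom in limma 3.58.1, the Wald test of DESeq2 1.42.0, its size factors in edgeR, unscaled library sizes, a filter of 1 count or of 1 CPM in 3 libraries, the compared groups alone, a replicate block and each of the 21 libraries left out. The promoter window of 1000 bases and the merged exon length were added after the data had been seen.

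The members and gene lists were chosen with earlier results of these data known. All 8 members were named in each comparison, of each other list at most the 3 called genes farthest from 0 in each direction, and the 3 genes most like each member (log2 CPM, prior count 2). A called gene of the bZIP lists is not reported here by name or in the figure. Gene models are from GENCODE release 44 and promoters from RefSeq, both on GRCh38. Figures were drawn with matplotlib 3.10.9.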

Additional observations from a re-analysis of the deposited data

Results flagged for a closer look

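The interaction tests marked 6 members because the effect of tunicamycin in OCI-AML3 cells differed between 24 h and 4 h. Of all genes tested 35.3% met the same rule, and *CEBPG* missed it in 22 of 29 alternatives. The log2 differences, 24 h minus 4 h, were -3.10 for *ATF3*, -1.43 for *CEBPB*, -1.34 for *JDP2*, -1.03 for *DDIT3*, -0.33 for *CEBPG* and 0.93 for *ATF5*.

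The same 6 were marked because the effect at 24 h differed between the lines, a rule that 26.8% of all genes tested met. The log2 differences, HEK293T minus OCI-AML3, were 1.69 for *ATF3*, 1.62 for *CEBPB*, 1.28 for *JDP2*, 0.79 for *CEBPG*, -0.64 for *DDIT3* and -2.38 for *ATF5*.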

How the results depend on the processing

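Over 1856 alternative values of the members' log2 fold changes, 1794 kept their direction and their side of the thresholds, 27 fell short of them, 20 passed them and 15 changed sign. In HEK293T cells all 232 were kept for tunicamycin against DMSO, where a gene under the fold threshold counts as kept whatever its adjusted p. At 4 h in OCI-AML3 cells *ATF4* lost its call in 4 alternatives (log2 fold change down to 0.93) and *ATF5* in 1 (0.99, without tunicamycin replicate 1), and at 24 h *ATF4* gained one without tunicamycin replicate 3 (1.03). Between DMSO at 24 h and 4 h, 1 member (*ATF3*) was called higher without DMSO 4 h replicate 1 or DMSO 24 h replicate 3, so that leaving out replicates gave 0 to 1, and 1 (*NUPR1*) was called lower with limma voom. The cause was not tested.

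Small differences changed sign. For DMSO at 24 h against 4 h, *ATF4* had -0.033 without TMM, and *DDIT3* had 0.0063 with the DESeq2 Wald test, 0.0060 with DESeq2 size factors and -0.12 to 0.080 when replicates were left out. *CEBPG* between the lines with DMSO had -0.12 without a filter beyond 1 count and -0.000609 with 1 CPM in 3 libraries. Its highest value over the 29 alternatives was 0.40, and the lowest adjusted p was 0.00078. When replicates were left out, *ATF3* for DMSO at 4 h against untreated had -0.19 to 0.39, the time interaction of *ATF4* -0.18 to 0.0077, and the line interaction of *NUPR1* -0.54 to 0.64.

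Between libraries of the same replicate number, deviations from the group means correlated at -0.139 to 0.132. In HEK293T cells each tunicamycin library was closest to the DMSO library of its own number (0.044, 0.058 and 0.119). In OCI-AML3 cells this held for replicates 1 and 3 at 4 h and replicate 1 at 24 h, and not for the others. Whether the numbers pair the samples is therefore not settled. With a replicate block 689, 886 and 298 genes were called in the 3 tunicamycin comparisons, against 690, 885 and 298 without it. In either fit 8, 3 and 6 members were called higher. The block changed no call of a member. Without a filter beyond 1 count 1401 genes instead of 885 were called at 24 h in OCI-AML3 cells, 514 instead of 298 in HEK293T cells, 917 instead of 581 between the DMSO times and 40 instead of 0 for DMSO against untreated. Between the lines with DMSO at 24 h, 10574 genes instead of 6335 were called without that filter. Without TMM the median of all genes moved by -0.12 between the DMSO times, 0.34 between the lines and -0.11 in the line interaction. Of the members' 56 group means, 37 then moved by less than the standard deviation of their libraries. Of the 3 nearest genes by Pearson's r, Spearman's rho shared 2 for *ATF3* and *CEBPG*, 1 for *ATF5* and *CEBPB* and 0 for the other members. Depth limits *NUPR1*, with 0 to 8 counts in the 24 h DMSO libraries.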
